A study of Mus musculus with 24 samples.

Results

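The response to asbestos was followed in alveolar macrophages sorted as Siglec F-high from the lungs of young mice, by setting 4 libraries from asbestos-exposed lungs beside 4 libraries from naive lungs, 8 of the 24 libraries of the series. The libraries were taken by their labels, 1 of them was then left out of the fit for its poor values, and all 13629 genes that passed the filter on low counts, of 43430 in the deposited table, were compared. All animals were C57BL/6J and 8 to 12 weeks old, the asbestos lungs were sampled 28 days after exposure, per the series' design text, and the labels name no transgene or drug for these groups. The other groups, used for the spread and for values set beside these, were old naive and old asbestos Siglec F-high cells from mice over 18 months old, and Siglec F-low cells from young and from old asbestos lungs. The labels do not say how many animals went into a library, nor that replicates came from separate animals, so p-values measure the spread between these samples, which may be technical. The controls are labelled naive, the route and dose of asbestos are not given in the sources used here, and the cells were defined by a flow sort on Siglec F and not by lineage tracing.

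Resident alveolar macrophages live in the air spaces, clear surfactant lipid and inhaled particles, and depend on GM-CSF and the nuclear receptor PPARγ. Asbestos fibres are too long to be digested, and lungs that hold them recruit monocytes that become a second set of alveolar macrophages and scar over weeks. Siglec F is a surface lectin carried at high levels by resident cells and at lower levels by recently recruited ones, which is the basis of the sort.

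The markers of resident alveolar macrophages were present at high levels. All 30 on the list had counts in each of the 7 libraries compared (4 naive and 3 asbestos), and their summed level was 33810 to 41613 CPM (counts scaled to the library total with TMM factors) in the naive libraries and 44172 to 48914 CPM in the asbestos libraries. Chil3, a chitinase-like secreted protein of these cells, took the largest level of the genes named here, with 11186, 15604, 11338 and 11694 CPM in the naive libraries. Its mean went from 12456 CPM in naive to 20798 CPM in asbestos libraries, so it made up most of the rise in the sum. In young Siglec F-low cells the same sum was 57093 to 71029 CPM, so a high sum is not particular to Siglec F-high cells.

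Of the 8 libraries, 7 held 14385568 to 18124526 counts on 17069 to 18820 genes and correlated with their group at 0.985 to 0.992, a correlation taken over genes and so not over independent units. Asbestos replicate 3 stood apart, with 11889517 counts on 12528 genes, a correlation of 0.868 and 17.1% of the tested genes at 0, against at most 1.78% in the other 7. It was left out of the fit, as was old asbestos Siglec F-high replicate 3, in which 56.2% of counts were rRNA-related. The young comparison therefore rests on 4 naive and 3 asbestos libraries in a fit of 22, and a fit of all 24 is given beside it. Among the 7 libraries, naive replicate 1 and asbestos replicate 1 also stood at an end of their groups in many of the called genes, as counted with the calls, and results that turn on one of them are given without it.

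With 22 libraries, edgeR's quasi-likelihood test called 690 genes at a Benjamini-Hochberg adjusted p under 0.05, which is 5.06% of those tested. Of these, 474 (3.48%) were higher and 216 (1.58%) lower after asbestos, and 2491 genes had an unadjusted p under 0.05. Most shifts were modest, with a median log2 fold change of 0.59 for the higher and -0.58 for the lower genes, while 135 rose and 52 fell by more than 2-fold. The values of the 7 libraries did not overlap for 456 of the 474 and 201 of the 216, where 16.8% of all tested genes showed no overlap. With all 24 libraries 256 genes were called (1.9%), and 237 of the 690 were among them, all in the same direction. Leaving out 1 of the 7 libraries at a time, 140 of the higher and 45 of the lower genes kept their call in each of 7 fits, 185 in all. The count fell furthest without asbestos replicate 1, to 211, and it was 428 and 435 without naive replicates 3 and 4 and 438 without asbestos replicate 4. In 347 of the 474 higher genes (73.2%) asbestos replicate 1 was the highest of the 3 asbestos libraries, against 38.1% of all tested genes, and in 130 of the 216 lower genes (60.2%) it was the lowest, against 36.004%. Naive replicate 1 was the highest of the 4 naive libraries in 249 of the 474 (52.5%, against 22.6% of all tested genes) and the lowest in 113 of the 216 (52.3%, against 22.8%), so it lay on the side of the asbestos group in both. Genes named as changed below are among the 185 unless it is said otherwise. Counts of list members below stand beside 3.48% higher and 1.58% lower over all tested genes. Counts of members called in each of the 7 leave-one-out fits stand beside 185 of 13629.

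**Figure D1:**
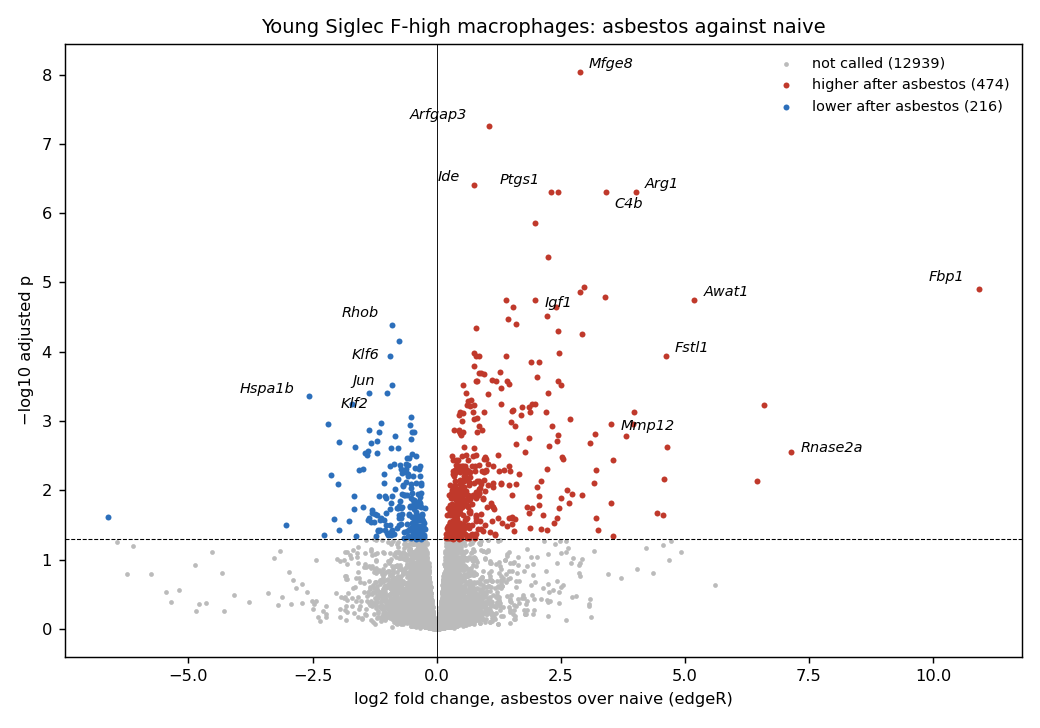
Each point is 1 of 13629 genes, with the log2 fold change of asbestos over naive on the horizontal axis and the negative log10 of the adjusted edgeR p on the vertical axis; the dashed line is the threshold of 0.05. The 474 red points on the right outnumber the 216 blue points on the left and reach further from 0. The fitted values of Fbp1 and Rnase2a rest on 0 and 1 naive counts and are not sizes of an effect.

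The gene of smallest p coded for a secreted bridge between dying cells and phagocytes. Mfge8 (ENSMUSG00000030605, chromosome 7, 79133768 to 79149060, minus strand, GRCm38) was at 13.998, 12.9, 11.2 and 10.5 CPM in the naive libraries and at 120.1, 66.4 and 83.3 CPM in the asbestos libraries. The lowest asbestos library was thus well above the highest naive one, and the log2 fold change was 2.89 ± 0.20 (SE, adjusted edgeR p 9.13e-09), with 3.04 in the fit of all 24 libraries. In the list of efferocytosis receptors and bridging molecules 3 of 29 tested members (10.3%, against 3.48% of all tested genes) were higher and none lower. The other 26 were not called, and the median log2 fold change was 0.10, beside -0.00083 over all genes tested. In Siglec F-low cells of the same exposure group Mfge8 stood at 536 to 602 CPM. For 405 of the 474 higher genes (85.4%) the mean of that sort lay above the asbestos Siglec F-high mean, against 49.7% of all tested genes. For 69 (14.6%) it lay below. For the 216 lower genes the mean of that sort lay below in 145 (67.1%), against 50.3% of all tested genes, and above in 71 (32.9%). Among genes called in each of the 7 leave-one-out fits, it lay above for 123 of 140 higher genes (87.9%). It lay below for 25 of 45 lower ones (55.6%). Values of that sort are given beside some of the genes below and not all. Among those without them there, Ctsk stood at 2397 to 3181 CPM in Siglec F-low cells, Cd63 at 770 to 924 CPM and Igf1 at 160 to 240 CPM. The part of carry-over between the sorts was not tested.

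Genes known from scar-associated and lipid-associated macrophages gave the largest share of higher calls among the lists of 10 or more tested genes. Of 29 tested members 17 were higher and none lower, with a median log2 fold change of 0.59, and 9 were called in each of the 7 leave-one-out fits and 9 with 24 libraries. Trem2, a lipid-sensing receptor, rose from 58.2, 47.6, 35.4 and 33.6 CPM to 85.6, 74.2 and 75.7 CPM, a log2 fold change of 0.85 ± 0.15 (adjusted edgeR p 0.00119). Its groups did not overlap, and the Siglec F-low cells held 193 to 232 CPM. Cd63, a tetraspanin of late endosomes, rose from 99.8 ± 42.2 CPM (SD, n = 4) to 303 ± 67.4 CPM (SD, n = 3), a change of 1.603 ± 0.20 (adjusted edgeR p 4.01e-05). A near-identical processed copy of Cd63 was also called, and the counting could split reads between them, so its level is uncertain. Fabp5, a carrier of fatty acids, went from 94.2 ± 21.1 to 178 ± 33.9 CPM with 7 libraries (0.92, adjusted edgeR p 0.00134), but it was not called with 24 (0.76, adjusted edgeR p 0.0916). Spp1, which codes for osteopontin, held 471, 399, 285 and 293 CPM in naive and 931, 619.9 and 622 CPM in asbestos libraries. Its change of 0.9999 ± 0.21 was called with 22 and with 24 libraries, but without asbestos replicate 1 it was 0.78 (adjusted edgeR p 0.0810). Gpnmb, a glycoprotein of lysosomes and melanosomes, had 692 CPM in naive replicate 1 against 369 to 377 CPM in the other 3. Its change of 0.89 (adjusted edgeR p 0.0223) was lost in 5 of the 7 leave-one-out fits, those without naive replicates 2, 3 or 4 or asbestos replicates 1 or 4, where the value was 0.80 to 0.92, and it was not called with 24 libraries (0.64, adjusted edgeR p 0.264).

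Of 24 tested growth signals to fibroblasts and matrix proteins 4 were higher and none lower, with a median log2 fold change of 0.52. Igf1, a growth factor that fibroblasts and epithelium respond to, rose from 27.5, 17.6, 11.2 and 12.7 CPM to 99.5, 53.1 and 52.1 CPM, a change of 1.98 ± 0.23 (adjusted edgeR p 1.77e-05). Every asbestos library lay above every naive one, and the poor library also held 91.1 CPM. Ecm1, a secreted matrix protein, had 13.2 to 15.2 CPM in naive and 24.7 to 26.7 CPM in asbestos libraries, a change of 0.81 ± 0.14 that was not called with 24 libraries (adjusted edgeR p 0.112). Outside the list, Fstl1, a secreted glycoprotein that binds members of the TGF-β family, rose from 1.18 ± 0.82 CPM (SD, n = 4) to 29.5 ± 9.92 CPM (SD, n = 3). This was one of the largest shifts measured from a detectable naive level, with a log2 fold change of 4.61 ± 0.64 (adjusted edgeR p 0.000114).

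Of 23 tested metalloproteinases, inhibitors and related proteases 6 were higher and none lower, 4 of the 6 were called in each of the 7 leave-one-out fits, and 17 were not called. Mmp12, the macrophage elastase, was at 3.92, 4.39, 6.50 and 5.75 CPM in naive and at 92.2, 44.1 and 42.0 CPM in asbestos libraries, a log2 fold change of 3.52 ± 0.61 (adjusted edgeR p 0.00111). The asbestos group had 1 library at more than 2 times the others, and the poor library held 45.4 CPM. Siglec F-low cells held 560.5 to 705 CPM of Mmp12, far above both Siglec F-high groups. Ctsk, the collagen-cutting cathepsin K, rose from 407 ± 73.8 CPM (SD, n = 4) to 1111 ± 269.6 CPM (SD, n = 3), by 1.45 ± 0.18 on the log2 scale (adjusted edgeR p 3.37e-05). Mmp14, a membrane-anchored metalloproteinase, rose from 0.594 ± 0.106 to 2.84 ± 1.17 CPM (adjusted edgeR p 0.000399). Adam8, a membrane protease of leukocytes, had 4.43 to 6.34 CPM in naive and 8.96 to 11.5 CPM in asbestos libraries, and its change of 0.98 was not called with 24 libraries (adjusted edgeR p 0.156).

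Prostanoids are lipid signals made from arachidonic acid. In the list for prostaglandin and leukotriene synthesis 5 of 26 tested genes were higher and none lower, and the median log2 fold change of the list was 0.0068. Ptgs1 (ENSMUSG00000047250, chromosome 2, 36230426 to 36252272, plus strand), the constitutive cyclooxygenase, had 6.75, 4.05, 3.92 and 4.37 CPM in naive and 38.5, 16.4 and 22.99 CPM in asbestos libraries. The groups were separate, at a log2 fold change of 2.44 ± 0.22 (adjusted edgeR p 4.9e-07). Ptgir, the prostacyclin receptor, rose from 5.46 to 26.2 CPM in naive libraries to 42.8 to 70.1 CPM, by 2.21 ± 0.37 (adjusted edgeR p 0.000737), and by 3.05 without naive replicate 1, the library at 26.2 CPM. Pla2g7, which hydrolyses platelet-activating factor, rose from 3.22 ± 0.943 to 9.43 ± 2.53 CPM, by 1.57 ± 0.27 (adjusted edgeR p 0.00119). All 3 were called with 24 libraries too.

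**Figure D2:**
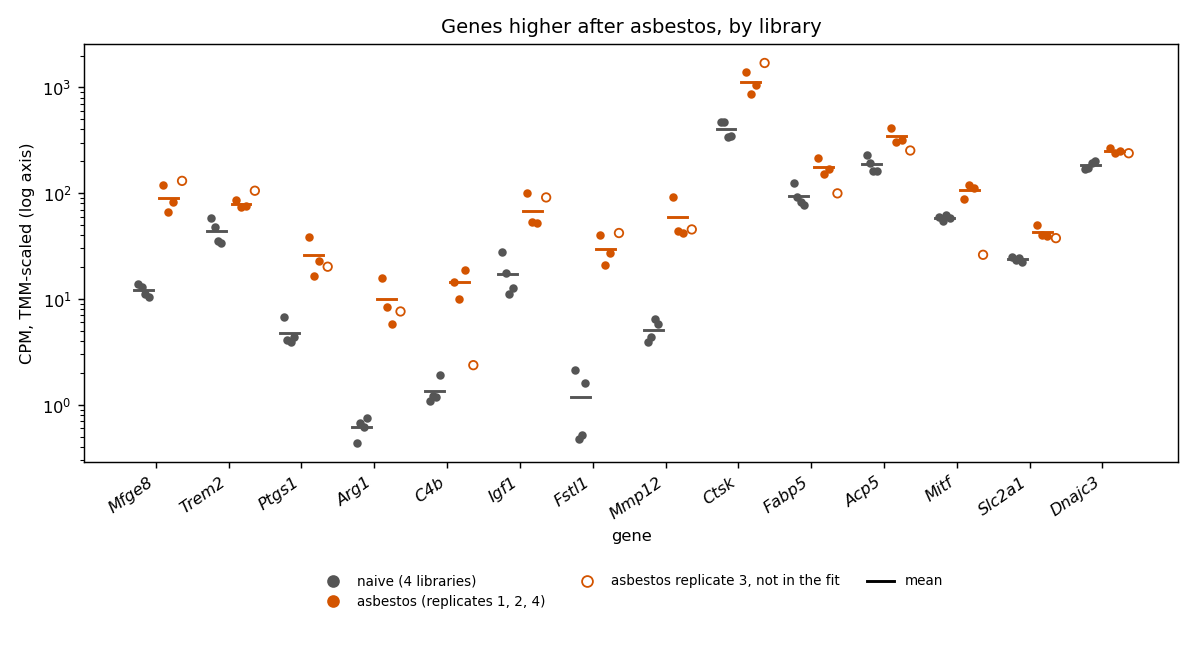
Points are single libraries, with CPM on a log axis, naive in grey and asbestos in orange; short lines are group means, and hollow circles are asbestos replicate 3, which is not in the fit. The 3 filled asbestos points lie above all 4 naive points for each of the 14 genes, while replicate 3 lies among or below the naive points for Mitf and Fabp5 and just above them for C4b.

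Genes of alternative activation, the state that interleukin-4 brings about in macrophages, had 8 of 26 tested members higher and 1 lower. Together these were 34.6% of the tested list, against 5.06% of all tested genes, and the median log2 fold change was 0.27. Arg1 (ENSMUSG00000019987, chromosome 10, 24915221 to 24927484, minus strand), which splits arginine, was near the limit of detection in naive libraries, at 0.436, 0.675, 0.619 and 0.747 CPM, and at 15.8, 8.44 and 5.80 CPM after asbestos. The change was 4.02 ± 0.37 on the log2 scale (adjusted edgeR p 4.9e-07), and Siglec F-low cells held 138 to 224 CPM. Chil3 was already abundant and rose further, to 22983, 19349 and 20063 CPM, by 0.74 ± 0.12 (adjusted edgeR p 0.000737), but was not called with 24 libraries (adjusted edgeR p 0.0967). Msr1, a scavenger receptor for modified lipoproteins and particles, rose from 12.1 ± 0.961 CPM (SD, n = 4) to 39.1 ± 6.28 CPM (SD, n = 3), by 1.69 ± 0.28 (adjusted edgeR p 0.000827). Ccl17, a chemokine that attracts T helper cells, rose from 1.15 to 2.37 CPM to 9.75 to 12.1 CPM, by 2.52 ± 0.49 (adjusted edgeR p 0.00331). Mrc1, the mannose receptor, shifted little, from 1947 ± 123 to 2396 ± 113 CPM, and its call (0.30, adjusted edgeR p 0.0128) was lost without asbestos replicate 2 (0.27, adjusted edgeR p 0.0617), without asbestos replicate 4 (0.29, adjusted edgeR p 0.0536) and with 24 libraries (0.12).

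Among 25 tested chemokine ligands 2 were higher and 1 lower (12% in all, against 5.06% of all tested genes). Cxcl16, a chemokine that draws T cells and also takes up oxidised lipid, rose from 6.10 ± 0.707 to 10.7 ± 1.48 CPM (0.80, adjusted edgeR p 0.00305). Ccl2, which draws monocytes, had 7.84, 16.9, 15.003 and 15.98 CPM in naive and 4.47, 7.12 and 4.61 CPM in asbestos libraries. It fell by 1.36 on the log2 scale with 7 libraries (adjusted edgeR p 0.00136), but the poor library held 28.0 CPM, above all naive ones, and it was not called with 24 (-0.37, adjusted edgeR p 0.622).

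Complement genes moved both ways. Of 20 tested members 6 were higher and 2 lower, with a median log2 fold change of 0.49. C4b (ENSMUSG00000073418, chromosome 17, 34728380 to 34743882, minus strand), a component of the classical and lectin pathways, was at 1.09, 1.22, 1.19 and 1.90 CPM in naive and at 14.6, 10.02 and 18.7 CPM in asbestos libraries. The groups were far apart, at 3.41 ± 0.32 (adjusted edgeR p 4.9e-07), although the poor library held 2.37 CPM. C4b has a close paralog, C4a, and reads of the pair could be split by the counting. C3ar1, the receptor for the C3a peptide, rose from 0.644 ± 0.0591 to 2.35 ± 0.671 CPM (1.87, adjusted edgeR p 0.000637) and was not called with 24 libraries (adjusted edgeR p 0.0955). Cd55, which protects cells from complement, fell from 5.12, 6.01, 5.41 and 5.86 CPM to 2.601, 2.16 and 0.790 CPM (-1.57, adjusted edgeR p 0.00511).

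Lysosomal genes break down what macrophages engulf. Of 47 tested hydrolases, cathepsins and membrane genes 16 were higher (34.0%, against 3.48% of all tested genes), none lower and 31 not called. Of the 47, 43 had a positive log2 fold change, against 49.8% of all tested genes, and the median was 0.21. The count of higher genes was 4 to 19 over the 7 leave-one-out fits, with 4 genes called in each of them, and 3 with all 24 libraries. Acp5, an acid phosphatase of osteoclasts and macrophages, rose from 229, 194, 163 and 163 CPM to 415, 307 and 318 CPM, by 0.89 ± 0.13 (adjusted edgeR p 0.000203). Its groups were separate, and Siglec F-low cells held 559.5 to 707 CPM. Lgmn, the endosomal protease legumain, which was listed with antigen presentation, rose from 201 ± 36.3 to 339 ± 61.4 CPM (0.75, adjusted edgeR p 0.000594). Mitf, a transcription factor of the family that drives lysosome genes, was at 59.97, 54.8, 62.0 and 57.8 CPM in naive and at 88.3, 121 and 111 CPM in asbestos libraries. Its change of 0.86 ± 0.12 (adjusted edgeR p 0.000114) was not called with 24 libraries (adjusted edgeR p 0.234), where the poor library held 26.2 CPM.

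Factors of the MITF and TFE family bind an E-box with flanking bases, TCACGTGA, and promoters from RefSeq (GRCm38.p6, 250 bases before to 50 after the start site) were searched for it on both strands. It was present for 6 of the 37 tested lysosomal genes with a promoter in the table, for 2.17% of the 10082 tested genes there and for 1.12% of all 27025 genes. The called members with a match were Gla, Ctsd and Atp6v1a, named here after the search, and none of them is among the 185. They are 3 of the 14 called members with a promoter. An AP-1 site (TGACTCA) was in 4 of the 14, against 4.59% of the tested genes. The core of the antioxidant response element (TGACNNNGC) was in 5, against 17.3%. Ctsd (0.41, adjusted edgeR p 0.0262) lost its call without naive replicates 3 or 4 or asbestos replicate 1, Atp6v1a (0.47, adjusted edgeR p 0.0108) without asbestos replicate 1, and neither was called with 24 libraries. The stretch of Gla is shown with both of its matches in capitals, since it is a raised gene of the list that carries the site more than 1 time.
Gla, chrX:134601173-134601253, minus strand: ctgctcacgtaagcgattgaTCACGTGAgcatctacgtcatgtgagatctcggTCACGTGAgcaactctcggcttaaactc
Gla, which trims glycolipids and carries 2 matches, rose from 60.4 ± 4.76 to 82.5 ± 11.6 CPM (0.45, adjusted edgeR p 0.00477), but without asbestos replicate 1 its change was 0.33 (adjusted edgeR p 0.0810), and it was not called with 24 libraries (adjusted edgeR p 0.108).

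In the list for glycolysis and hypoxia 9 of 32 tested genes were higher and none lower, with a median of 0.12, while 5 were called with upper-quartile scaling, 3 with 24 libraries and 2 in each of the 7 leave-one-out fits. Fbp1, the enzyme of gluconeogenesis that opposes glycolysis, had no count in any of the 4 naive libraries and 21.8, 15.03 and 7.97 CPM in the asbestos libraries. It was thus at least 348-fold higher, set against a floor of 3 counts over the naive group, and Siglec F-low cells held 44.5 to 189 CPM. Slc2a1, the glucose transporter GLUT1, rose from 24.7, 23.4, 24.6 and 22.5 CPM to 49.9, 40.3 and 39.0 CPM, by 0.86 ± 0.12 (adjusted edgeR p 0.000203). Its naive libraries were close together (SD 1.03 CPM) and its asbestos libraries less so (SD 5.98 CPM), and it was called with 24 libraries as well.

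Chaperones of the endoplasmic reticulum and genes of the unfolded protein response had 11 of 26 tested members higher and none lower, with a median of 0.24. This count was 3 to 10 over the 7 leave-one-out fits and 1 with 24 libraries. Dnajc3, a cochaperone that also restrains the kinase PERK, rose from 168, 172, 195 and 199.8 CPM to 269.9, 239.7 and 248 CPM, by 0.46 ± 0.08 (adjusted edgeR p 0.000827). Sdf2l1, a partner of ER chaperones, rose from 97.1 ± 8.76 to 143 ± 6.98 CPM (0.56, adjusted edgeR p 0.00501), and Hyou1, an ER nucleotide exchange factor, from 264 ± 23.6 to 353 ± 14.2 CPM (0.42, adjusted edgeR p 0.00535). Of these 3, Dnajc3 alone was called with 24 libraries. Hspa5, the master chaperone BiP, was at 1041, 1319, 1179 and 1179 CPM in naive and at 1589, 1398 and 1316 CPM in asbestos libraries, which overlapped by a small margin (0.28 ± 0.11, adjusted edgeR p 0.166). The ER stress response element was found in the promoters of 8 of 22 genes of the list of 0.159% of the tested genes and of 0.137% of all genes, and among the called members only in that of Dnajc3. The window of Dnajc3 is given with the element in capitals, since it is the raised gene that carries it.
Dnajc3, chr14:118937807-118937865, plus strand: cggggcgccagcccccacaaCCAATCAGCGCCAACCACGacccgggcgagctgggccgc

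The integrated stress response slows translation under stress. Of 32 tested members 1 was higher and 2 lower (9.4% in all, against 5.06% of all tested genes), and the median was 0.06. Atf4, its central factor, was at 200.5 ± 10.5 CPM (SD, n = 4) in naive and 183 ± 21.3 CPM (SD, n = 3) in asbestos libraries (-0.13 ± 0.11, adjusted edgeR p 0.588), and Ddit3, which codes for CHOP, at 10.6 ± 0.947 and 9.72 ± 1.95 CPM (adjusted edgeR p 0.849). None of 36 proteasome subunits was called by edgeR, with 4 at an unadjusted p under 0.05, 0 called by DESeq2 and 4 by limma voom. None of 23 genes of the inflammasome and the interleukin-1 family was called by edgeR, with 4 at an unadjusted p under 0.05, 0 called by DESeq2 and 3 by limma voom. Of 33 interferon-stimulated genes 1 was higher and 1 lower (6.06% in all, near the 5.06% of all tested genes).

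Cell cycle genes had 7 of 40 tested members higher (17.5%, against 3.48% of all tested genes) and none lower, with a median of 0.30. Of the 40 log2 fold changes 35 were positive, against 49.8% over all tested genes. No member was called in each of the 7 leave-one-out fits, where the count ranged from 0 to 13. Rrm2, a subunit of the enzyme that makes deoxynucleotides, had 39.3, 38.3, 34.7 and 37.3 CPM in naive and 64.6, 52.5 and 50.6 CPM in asbestos libraries. The groups were separate, but the call (0.58, adjusted edgeR p 0.00478) was lost without asbestos replicate 1 (0.46, adjusted edgeR p 0.0701) and with 24 libraries (0.39, adjusted edgeR p 0.217).

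**Figure D3:**
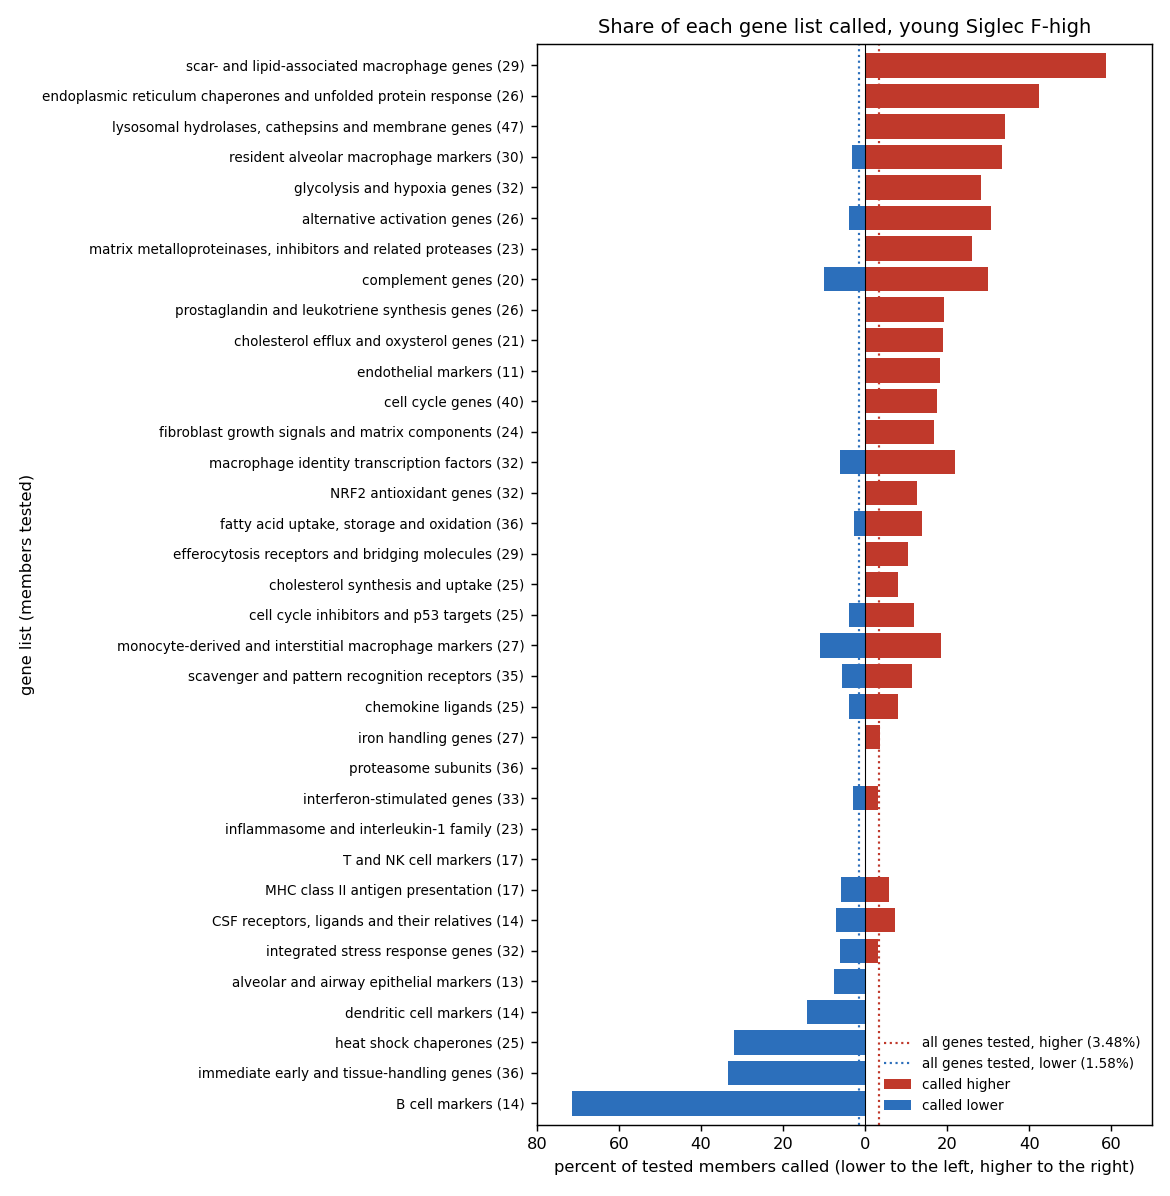
Bars give the percent of tested members of each list that were called higher (red, to the right) or lower (blue, to the left) with 22 libraries, for lists with 10 or more tested members; dotted lines are the shares over all genes, 3.48% and 1.58%. Scar- and lipid-associated genes reach furthest to the right, with 17 of 29, and B cell markers furthest to the left, with 10 of 14.

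Several genes of smallest p belonged to none of the lists. Arfgap3, which acts on ARF1 in traffic through the Golgi, rose with very little spread, from 40.1, 36.9, 41.8 and 40.4 CPM to 81.03, 85.7 and 81.3 CPM, by 1.05 ± 0.08 on the log2 scale (adjusted edgeR p 5.55e-08). With the poor library, at 28.1 CPM, the value was 0.80 and still called (adjusted edgeR p 0.0479). Lrg1, a secreted glycoprotein that modulates TGF-β signals, rose from 14.98, 4.73, 7.37 and 7.76 CPM to 83.4, 50.3 and 72.7 CPM, by 2.97 ± 0.33 (adjusted edgeR p 1.18e-05). Anpep, the surface peptidase CD13, rose from 6.20 ± 0.705 to 45.9 ± 11.2 CPM, by 2.89 ± 0.33 (adjusted edgeR p 1.39e-05). Both rose well past the naive range, and Siglec F-low cells held still more, at 105 to 129 CPM of Lrg1 and 218 to 247 CPM of Anpep. Zranb3, a translocase that restarts stalled replication forks, rose from 8.21 ± 2.93 to 32.5 ± 5.92 CPM (1.98, adjusted edgeR p 1.39e-06). Cited4, a transcriptional coregulator, rose from 1.46 ± 0.336 to 6.95 ± 1.92 CPM (2.25, adjusted edgeR p 4.25e-06). Awat1, which makes wax esters, rose from 0.533 ± 0.738 to 20.6 ± 11.2 CPM (5.20, adjusted edgeR p 1.77e-05), with 1.63 CPM in naive replicate 1 against at most 0.258 CPM in the other naive libraries and a log2 fold change of 6.83 without that library. Tln2, a cytoskeletal link to integrins, rose from 1.35 ± 0.319 to 6.61 ± 0.808 CPM (2.30, adjusted edgeR p 4.9e-07), was at 0 in the poor library and was not called with 24 (adjusted edgeR p 0.0615).

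Ear6 and Rnase2a, which code for secreted ribonucleases of the eosinophil-associated family, also rose, though members of the family are near-identical and their reads could be split. Other members of the family are not described here. Ear6 was at 4.90, 6.08, 2.89 and 2.18 CPM in naive and at 26.6, 19.7 and 18.4 CPM in asbestos libraries, a change of 2.45 ± 0.44 (adjusted edgeR p 0.00158). Rnase2a had 1 count over the 4 naive libraries and 163 over the 3 asbestos libraries, a ratio of 215 after scaling to the library totals, with a 95% exact interval of 38.0 to 8533 that covers counting error only. The single naive count was in replicate 4. Siglec F-low cells held 17.5 to 80.5 CPM of Rnase2a. Of the 9 listed eosinophil markers 5 were tested, of which 2 (Ear6 and Alox15) were higher and none lower, 4 had a positive log2 fold change, and the median was 2.22. The call of Alox15 (2.22, adjusted edgeR p 0.0374) was lost without naive replicates 1, 2 or 3 or asbestos replicates 1 or 2, and its log2 fold change was 1.56 to 3.33 over the 7 leave-one-out fits. It was not called with 24 libraries (adjusted edgeR p 0.191). The summed level of the 5 markers, 524 to 658 CPM in naive and 480 to 528 CPM in asbestos libraries, is nearly all Siglecf, which the macrophages carry, and so says little of the other 4. The part of eosinophils in the rise of Ear6 was not tested.

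The lower genes included a block of immediate early genes and their kin, which cells switch on within minutes of a stimulus or of handling. Of 36 tested members 12 were lower and none higher, with a median of -0.33, and the count was 4 to 12 over the 7 leave-one-out fits and 7 with 24 libraries. Rhob (ENSMUSG00000054364, chromosome 12, 8497661 to 8500009, minus strand), a small GTPase of endosomes, fell from 446, 474, 549.6 and 501 CPM to 241, 307 and 245 CPM, by 0.90 on the log2 scale (SE 0.11, adjusted edgeR p 4.06e-05). Its groups were separate, and the poor library held 212 CPM. Jun, an AP-1 subunit, fell from 568, 633, 837 and 762 CPM to 329, 422 and 375 CPM, by 0.90 (SE 0.14, adjusted edgeR p 0.000300), and was called with 24 libraries too. Klf6, a zinc finger factor, fell from 502, 587, 575 and 589 CPM to 293, 364 and 341 CPM (-0.76 ± 0.10, adjusted edgeR p 6.93e-05). Klf2, a factor that keeps macrophages and endothelium quiescent, fell from 184 ± 14.2 to 92.4 ± 16.4 CPM (-0.99 ± 0.15, adjusted edgeR p 0.000399). In the poor library Klf6 and Klf2 stood above all naive libraries, at 987 and 264 CPM, and with 24 libraries neither was called (adjusted edgeR p 0.685 and 0.362). Ier2, a further immediate early gene, went from 273 ± 28.7 to 183 ± 22.2 CPM (-0.58, adjusted edgeR p 0.00585), which was lost without asbestos replicate 1 (-0.55, adjusted edgeR p 0.0539) and with 24 libraries (-0.13, adjusted edgeR p 0.753). Since the labels do not record the time from lung to lysis, how far handling contributed was not tested.

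Cytosolic and mitochondrial heat shock chaperones formed the other lower block. Of 25 tested members 8 were lower and none higher, 2 had a positive log2 fold change, and the median was -0.21. The count was 3 to 10 over the 7 leave-one-out fits and 3 with 24 libraries. Hspa1b and Hspa1a, the inducible HSP70 pair, fell most. Hspa1b (ENSMUSG00000090877, chromosome 17, 34956436 to 34959238, minus strand) was at 12.47, 21.8, 49.0 and 42.5 CPM in naive and at 5.49, 6.49 and 3.69 CPM in asbestos libraries (-2.58 ± 0.41, adjusted edgeR p 0.000442). Hspa1a was at 6.81, 15.7, 27.6 and 26.8 CPM and at 4.86, 5.43 and 2.17 CPM (-2.19 ± 0.38, adjusted edgeR p 0.00112). The naive libraries differed widely among themselves and replicate 1 was the lowest of them for both genes, yet no asbestos library reached it. Old naive means were also low, at 6.39 CPM for Hspa1b and 5.81 CPM for Hspa1a, and young Siglec F-low means were 4.97 and 4.66 CPM. In old cells the asbestos response of neither was called (-1.58 and -1.12, adjusted edgeR p 0.0597 and 0.143). How far handling of the young naive cells contributed was not tested. Dnajb1, the HSP40 that works with them, fell from 68.3 ± 12.3 CPM (SD, n = 4) to 44.5 ± 4.11 CPM (SD, n = 3) (-0.62, adjusted edgeR p 0.00495). Hsp90aa1, the inducible HSP90, was at 177 ± 32.5 and 128 ± 11.5 CPM (-0.47, adjusted edgeR p 0.0163), but the poor library held 908 CPM and turned the sign with 24 libraries (0.86, adjusted edgeR p 0.274). That call was also lost without naive replicates 2 or 4 or asbestos replicates 1 or 4, where the value was -0.51 to -0.38.

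The core of the heat shock element, GAANNTTC, was found on either strand in the promoters of 10 of 20 chaperone genes with a promoter in the table, of 7.20% of the tested genes and of 9.04% of all genes. Of the 6 called members with a promoter 4 carried it, and the windows of the pair that fell most are shown with the match in capitals.
Hspa1a, chr17:34972233-34972280, minus strand: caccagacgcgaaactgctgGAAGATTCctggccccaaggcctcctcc
Hspa1b, chr17:34959315-34959362, minus strand: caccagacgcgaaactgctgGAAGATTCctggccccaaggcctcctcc
The windows of Hspa1a and Hspa1b are identical, as much of their transcripts is, so the counts of the pair are uncertain between them. For the immediate early list, the cyclic AMP response element (TGACGTCA) was in 3 of 29 promoters, 3.61% of those of tested genes and 2.03% of all. The CArG box was in 3 of 29, 1.498% of those of tested genes and 1.81% of all, and the AP-1 site (TGACTCA) in 0 of 29, 4.59% and 5.95%. These matches describe the letters in a short window and were not tested against the fold changes.

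**Figure D4:**
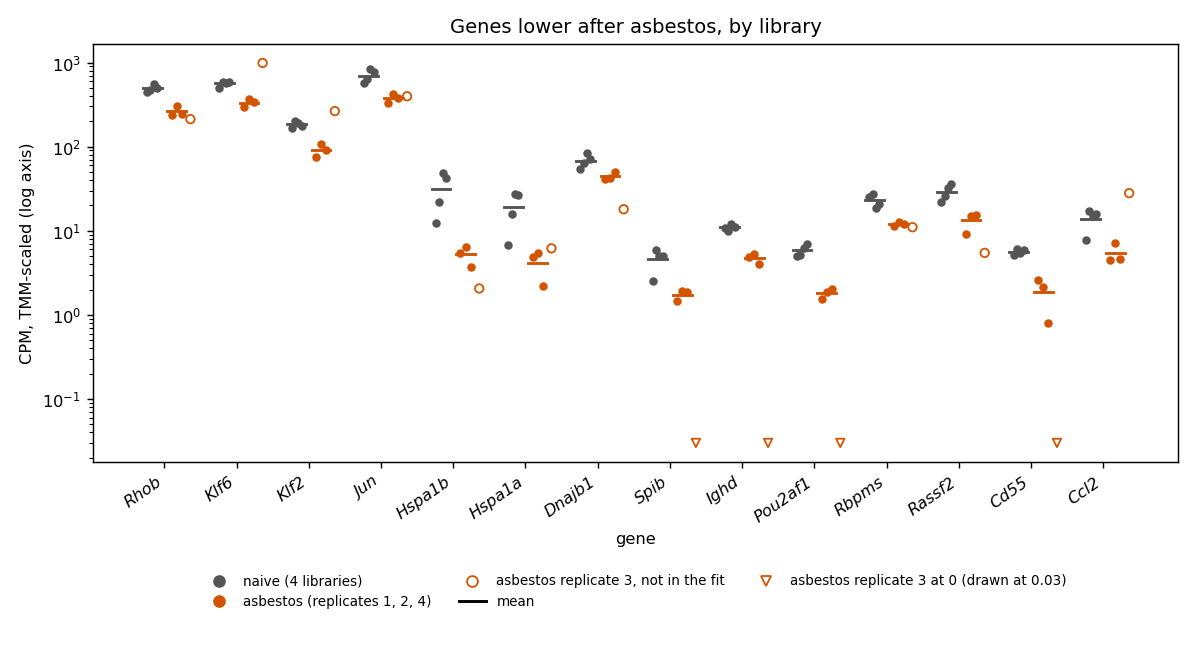
Points are single libraries, with CPM on a log axis, naive in grey and asbestos in orange; short lines are group means, hollow circles are asbestos replicate 3, and hollow triangles mark where it was at 0. The 3 filled asbestos points lie below all 4 naive points for each of the 14 genes, while replicate 3 lies above the naive points for Klf6, Klf2 and Ccl2.

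B cell markers gave lower calls. Of 14 tested B cell markers 10 were lower and none higher, with a median log2 fold change of -1.21, and 4 were called in each of the 7 leave-one-out fits and 4 with 24 libraries. Ighd, the heavy chain of IgD, fell from 10.9 ± 0.795 to 4.72 ± 0.640 CPM (-1.21, adjusted edgeR p 0.00289), but was not called with 24 libraries (adjusted edgeR p 0.0829). Spib, a factor of B and plasmacytoid cells, fell from 4.62 ± 1.43 to 1.74 ± 0.233 CPM (adjusted edgeR p 0.00305). Pou2af1, a coactivator of B cells that was not on the list, fell from 5.86 ± 0.922 to 1.80 ± 0.260 CPM (-1.70, adjusted edgeR p 0.000572). Bank1, a scaffold of the B cell receptor, fell from 4.36 ± 0.624 to 1.59 ± 0.806 CPM (adjusted edgeR p 0.00292), but had 6.59 CPM in the poor library and was not called with 24. The summed level of the list was 261 to 299 CPM in naive and 214 to 232 CPM in asbestos libraries, a small part of each library in both groups. The listed members named here had naive means of at most 10.9 CPM, so most of this sum rests on other members. Which cells those came from was not tested, and the sum does not measure the fall of B cell RNA. In bulk samples, fewer cells of a type and less RNA per cell cannot be told apart. T and NK cell markers had none of 17 called by edgeR, with 1 at an unadjusted p under 0.05, 0 called by DESeq2 and 1 by limma voom. Of their 17 log2 fold changes 2 were positive, against 49.8% over all tested genes, and the median was -0.35.

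Markers of other cell types that the gate could hold were summed in the same way. Summed levels in naive and asbestos libraries were 30.0 to 70.2 and 28.3 to 58.0 CPM for T and NK cells, 68.2 to 100.2 and 75.1 to 87.8 CPM for neutrophils, and 191 to 253 and 183 to 205 CPM for dendritic cells. They were 271 to 368 and 269 to 314 CPM for epithelium and 5.98 to 10.5 and 7.44 to 10.9 CPM for fibroblasts and smooth muscle. Of 9 tested neutrophil markers 1 was called higher and 1 lower. Among dendritic cell markers 2 of 14 were lower, and among epithelial markers 1 of 13. These counts stand beside 3.48% higher and 1.58% lower over all tested genes, and none of these calls held in each of the 7 leave-one-out fits. Endothelial markers summed to 432 to 778 CPM in naive and 854 to 1062 CPM in asbestos libraries, mostly through Car4, which alveolar macrophages also express, and Vwf. Vwf, the clotting factor carrier, went from 124 ± 11.9 to 184 ± 8.37 CPM (0.56, adjusted edgeR p 0.0137), which was lost without asbestos replicate 1 (0.54, adjusted edgeR p 0.0810) and with 24 libraries (adjusted edgeR p 0.444). The part of these cells in the results on macrophage genes was not tested.

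Among the remaining genes of smallest p that were lower, Rbpms, an RNA-binding protein, fell from 25.2, 27.4, 18.8 and 20.8 CPM to 11.4, 12.6 and 12.1 CPM, by 0.94 on the log2 scale (SE 0.13, adjusted edgeR p 0.000114). Its asbestos libraries, the poor one included at 11.02 CPM, were almost equal. Rassf2, a protein with a Ras-association domain, fell from 28.8 ± 6.15 to 13.2 ± 3.49 CPM (-1.12, adjusted edgeR p 0.00108). Itpk1, a kinase of inositol phosphates, fell from 53.8 ± 2.27 to 36.9 ± 5.30 CPM (-0.55, adjusted edgeR p 0.00114), and Ugcg, which makes the first glycosphingolipid, from 161 ± 14.2 to 118 ± 7.88 CPM (-0.45, adjusted edgeR p 0.00145). All 4 were called with 24 libraries. Ttc39b, which affects the turnover of liver X receptors, fell from 108 ± 8.92 to 75.8 ± 1.14 CPM (-0.51, adjusted edgeR p 0.000885) and was not called with 24 (adjusted edgeR p 0.0955).

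Markers of resident identity were called in both directions. Of 30 tested resident markers 10 were higher and 1 lower, with log2 fold changes from -1.04 to 2.45 and a median of 0.07, and 2 of the 11, Chil3 and Ear6, were called in each of the 7 leave-one-out fits. Siglecf, the sort marker, was at 571, 651, 519.8 and 522 CPM in naive and at 480.2, 505 and 461 CPM in asbestos libraries. The asbestos libraries were all lower, but the difference of -0.23 ± 0.10 was not called (adjusted edgeR p 0.234), and Siglec F-low cells held 250.1 to 309 CPM. Pparg rose from 186 ± 18.96 to 238 ± 27.4 CPM (0.35, adjusted edgeR p 0.0374) and Car4, a surface carbonic anhydrase, from 414 ± 155 to 743 ± 104 CPM (0.84, adjusted edgeR p 0.0364). Pparg lost its call without naive replicates 1 or 3 or asbestos replicates 1 or 2 (0.28 to 0.34), Car4 without any 1 of 6 libraries, all but naive replicate 1 (0.72 to 0.91), and neither was called with 24. Marco, a scavenger receptor for particles, had 644 CPM in naive replicate 1 and 137, 136 and 128 CPM in the other naive libraries, against 539, 383 and 362 CPM after asbestos. The difference of 0.71 ± 0.44 was not called (adjusted edgeR p 0.436), but without naive replicate 1 it was 1.68 and called (adjusted edgeR p 0.00236). Fabp1, a fatty acid carrier, fell from 157 ± 36.7 to 76.6 ± 11.6 CPM (-1.04, adjusted edgeR p 0.0121), which was lost without asbestos replicates 1 (-1.06, adjusted edgeR p 0.0654) or 4 (-0.92, adjusted edgeR p 0.0733) and with 24 libraries (adjusted edgeR p 0.172).

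Markers of monocyte-derived and interstitial macrophages did not move as 1 group. Of 27 tested 5 were higher and 3 lower, with a median of 0.10, and their summed level was 2042 to 2394 CPM in naive and 2004 to 2293 CPM in asbestos libraries, against 2990 to 3321 CPM in Siglec F-low cells. Apoe, the lipoprotein that recruited macrophages make in quantity, was at 96.4, 113, 116 and 116 CPM in naive and at 112, 114 and 119 CPM in asbestos libraries (0.06 ± 0.17, adjusted edgeR p 0.911). Its level in Siglec F-low cells was 246 to 397 CPM. Cx3cr1, a chemokine receptor of monocyte-derived cells, likewise was not called, at 2.02 to 3.71 CPM in naive and 1.36 to 2.58 CPM in asbestos libraries (-0.55 ± 0.29, adjusted edgeR p 0.329), with 2.90 to 4.94 CPM in Siglec F-low cells.

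The same exposure in old mice, compared in other libraries of the same fit, called 562 genes (4.12%), 430 higher and 132 lower. Of the 474 genes higher in young cells 455 (96.0%) had a positive log2 fold change in old ones, where 49.97% of all tested genes did, and of the 216 lower genes 204 (94.4%) had a negative one. Calls in both ages were 217 higher genes, 45.8% of the young and 50.5% of the old list, and 45 lower genes, 20.8% of the young and 34.1% of the old list. The difference between the ages was called for 2 genes (0.0147%), with 703 at an unadjusted p under 0.05, and DESeq2 called 13. With all 24 libraries edgeR called 0, with 1050 at an unadjusted p under 0.05.

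**Figure D5:**
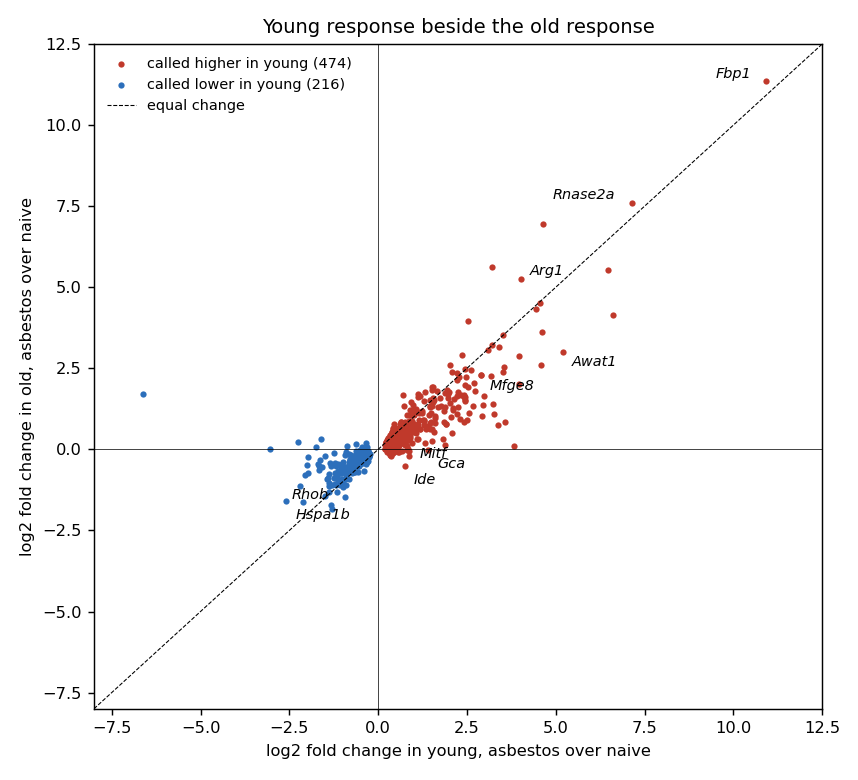
Each point is 1 of the 690 genes called in young cells, with its log2 fold change in young cells on the horizontal and in old cells on the vertical axis; the dashed line marks equal change. Points lie mostly in the upper right and lower left, where 455 of 474 and 204 of 216 share their sign, and Ide and Gca lie below the line on the right.

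Ide (ENSMUSG00000056999, chromosome 19, 37268743 to 37337852, minus strand), the insulin-degrading enzyme, rose in young cells and fell in old ones. It was at 61.5, 57.0, 64.0 and 65.3 CPM in young naive and at 108, 100.1 and 105 CPM in young asbestos libraries, a change of 0.75 ± 0.07 (adjusted edgeR p 3.9e-07), with a change of -0.51 ± 0.07 in old cells. The young minus old difference was 1.27 ± 0.09 (adjusted edgeR p 5.02e-08). In CPM of the library totals, without TMM factors, the groups fell into 2 bands, one with young naive (58.7 to 70.04), old asbestos Siglec F-high (66.1 to 68.9) and old Siglec F-low (56.2 to 70.7) and the other with old naive (95.6 to 110.2), young asbestos Siglec F-high (104.8 to 109.6) and young Siglec F-low (88.6 to 99.4). Both sorts of a given age and exposure shared a band. Neighbouring genes, chosen after the values of Ide were seen, were read in the same way. Fgfbp3 was at 0.286 to 0.889 CPM in young naive, 0.803 to 1.21 in young asbestos, 1.46 to 2.44 in old naive and 0.429 to 0.968 in old asbestos Siglec F-high cells, and Btaf1 was at 59.2 to 75.8 CPM in young naive, 65.4 to 76.7 in young asbestos, 67.2 to 73.2 in old naive and 55.2 to 64.96 in old asbestos Siglec F-high cells. The values of Btaf1 overlapped in young cells and were lower without overlap after asbestos in old ones, where edgeR did not call it (-0.15, adjusted edgeR p 0.402). A chromosome 19 segment with Ide and Fgfbp3 is known to vary in copy number in the C57BL/6J colony, and copy number was not tested here. With all 24 libraries Ide was not called in young cells (0.52, adjusted edgeR p 0.137), where the poor library held 41.2 CPM.

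Gca, which codes for the calcium-binding protein grancalcin, was the other gene that differed between the ages. It rose from 23.97, 17.5, 20.9 and 21.5 CPM to 40.5, 67.2 and 58.8 CPM in young cells, by 1.40 ± 0.16 (adjusted edgeR p 1.77e-05), and was at -0.03 ± 0.17 in old ones. The young asbestos libraries were all above the naive ones, and the poor library, at 22.6 CPM, was not. The young minus old difference was 1.43 ± 0.24 (adjusted edgeR p 0.0269), and this call was lost without naive replicates 2, 3 or 4 or asbestos replicates 2 or 4, where it was 1.26 to 1.44 (adjusted edgeR p 0.0687 to 0.135). The difference for Ide kept its call in each of the 7 leave-one-out fits, and with all 24 libraries neither was called (adjusted edgeR p 0.587 for both).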

How the data were processed

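Poly(A) RNA-seq libraries of flow-sorted lung macrophages, 4 in each of 6 groups, were prepared with NEBNext Ultra after AllPrep extraction, per the labels. The authors deposited raw read counts per gene in 1 table of 43430 gene IDs; the submitters' processing notes name bcl2fastq 2.19.1, FastQC, Trimmomatic 0.36, STAR 2.6.0, HTSeq 0.11.2 and mm10. Annotation and strand setting are not given in the sources used here, so overlapping and antisense genes could share reads.

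From these counts, genes were kept by edgeR's filter by group (minimum count 10, minimum total 15), scaled by TMM and tested with edgeR 4.0.16 (quasi-likelihood F test, limma 3.58.1, R 4.3.3), with Benjamini-Hochberg adjustment over all 13629 genes and a threshold of 0.05. The fit held 22 libraries in 6 groups, without the poor replicate 3 of the young and of the old asbestos Siglec F-high groups. SEs are the log2 fold change over the square root of F. Alternatives were all 24 libraries, other scalings, filters and groups, each library left out, a replicate block, DESeq2 1.42.0 and limma voom with quality weights on 24 libraries. The code was tested on simulated data. Positions come from GENCODE M21 (GRCm38) by gene ID and symbols from a name table that matched 42462 IDs; promoters come from RefSeq (GRCm38.p6), where 10082 tested genes matched by symbol.

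Genes were named by a rule: the 12 higher and 12 lower genes of smallest p without overlap between the groups, the 5 of largest and of smallest fold change, up to 5 called members of each of 42 lists, the genes called for the age difference, and 17 further genes. Of these, genes that kept their call when each library was left out were preferred for description, so their stability is partly a matter of choice. CPM are as edgeR computes them, with TMM factors. Members and lists were chosen with earlier results of these data known.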

Additional observations from a re-analysis of the deposited data

Results flagged for a closer look

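In a group of 4 libraries, a gene was picked out when its highest or lowest library stood far from the other 3 relative to the whole range (Dixon's criterion), which chance does in about 1 of 20 groups. Only the naive group could be read this way, since 3 asbestos libraries entered the fit. Naive replicate 1 stood above the other naive libraries for Ptgs1 (6.75 CPM), Ptgir (26.2 CPM), Gpnmb (692 CPM), Zranb3 (12.6 CPM), Awat1 (1.63 CPM) and Marco (644 CPM), and below them for Klf6 (502 CPM). These values lay towards the asbestos group in each of the 7 genes. Naive replicate 2 stood above the others for Chil3 (15604 CPM). Naive replicate 4 stood above the others for C4b (1.90 CPM) and Rnase2a (0.0575 CPM, 1 count) and below them for Itpk1 (50.4 CPM). With asbestos replicate 3 included, that library was the outlying one in 12 of the 79 named genes, 7 high and 5 low, and asbestos replicate 1 in 2.

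With 22 libraries the response differed between the ages for Ide, by 1.27 on the log2 scale (young minus old), and for Gca, by 1.43, in edgeR's test of the difference itself. With all 24 libraries neither was called (adjusted edgeR p 0.587 for both). Copy number at Ide was not tested, so it cannot be told apart from a difference in response.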

How the results depend on the processing

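The count of 690 genes called in young cells moved with the choice of libraries: 256 with all 24, 398 with 23 (without the poor young library alone), 418 with the 2 groups fitted alone, 302 without both replicates 1 (an alternative chosen after seeing the data) and 211 to 834 leaving out 1 library at a time. Another tool with library weights, limma voom on all 24, called 1895. Other scalings and filters, robust fitting and DESeq2 gave 671 to 1003, and upper-quartile scaling moved the share of higher calls from 68.7% to 60.8%. In old cells 562 calls became 105 with 24 libraries. The age difference was called for 0 genes with 24 libraries, 1 with the groups alone, 1 to 2 leaving out 1 library, 16 without a filter and 13 with DESeq2. Whether replicate numbers pair the samples is not settled by these few libraries. Correlations of same-numbered deviations were 0.179 (replicates 1), -0.0308 and 0.0217, and those of unlike numbers were -0.148 to 0.119. With a replicate block the counts were 889 (22 libraries) and 210 (24 libraries) in young cells, 97 in old cells with 24 and 0 for the age difference with 24. Hsp90aa1 changed sign, to 0.86 with 24 libraries and 0.64 with 24 and the block, where the poor library held 908 CPM. Of 72 named genes called, 46 kept the call with 24 libraries and 62 without asbestos replicate 1; the cause was not tested. No mast cell or basophil marker passed a minimum count of 50, so that list has no value there. Depth limits genes under 1 CPM most, which rest on few reads a library.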
